A study of Mus musculus with 15 samples.

Results

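The AP-1 genes described here are Fos, Fosb, Fosl1, Fosl2, Jun, Junb, Jund, Batf, Batf3 and Atf3. They were taken by name from the mouse annotation on build mm9, and all 10 were found among its 22342 protein-coding gene starts. AP-1 is a family of transcription factors that bind DNA as pairs held together by a leucine zipper, in which a Fos protein, a Batf protein or Atf3 usually joins a Jun protein. Several of its genes are immediate early genes, which respond to growth factors and stress without new protein synthesis. AP-1 is known in macrophages for acting together with PU.1 and C/EBP factors at enhancers, the distal elements that raise transcription.

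The samples were C10 cells, mouse pre-B cells of the HAFTL line that carry a C/EBPαER fusion tagged with GFP. All groups share this transgene and come from the same line. Induced cells received 100 nM β-estradiol and were grown with IL-3 and CSF-1, whereas control cells received 0.1% ethanol, and the groups are C10 cells at 0, 3, 12, 24 and 48 hr post-induction (hpi). The measurement was chromatin immunoprecipitation with deep sequencing (ChIP-seq) of H3K4Me1, found at poised as well as active enhancers, of H3K27Ac, found where promoters and enhancers are active, and of H3K27Me3, found where Polycomb represses, with 1 library for each mark and time. Gene expression was not analysed here.

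A level is the number of tags (aligned reads, 1 kept per position) in 3000 bp after all libraries of a mark were thinned to the same number of tags, which were 10.914 M (H3K4Me1), 15.216 M (H3K27Ac) and 15.338 M (H3K27Me3). Because every window has the same length, levels may be compared between genes within a mark. The start window is centred on the annotated start, and 16 further windows lie on each side of it. A change is log2((later tags + 1)/(0 hpi tags + 1)), and a window was called higher or lower at 2-fold or more with at least 10 tags in the higher library. A window was called enriched when its tags were improbable (Poisson tail below 0.001) over the genome mean, which took 27 tags for H3K4Me1 and 34 for each of H3K27Ac and H3K27Me3. Intervals are exact 95% intervals and cover counting error only. There were no replicates, so no difference could be set against a spread between samples, and all changes from 0 hpi of a mark share a single 0 hpi library. A higher level may come from more cells with the mark or from more of the mark per cell, which cannot be told apart.

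As a check of the labels, all 8 B cell marker starts were lower in H3K27Ac at 48 hpi and all 8 macrophage marker starts were higher. Pax5, a B cell identity factor, went from 1331 to 354 tags, and Cd14, a receptor of macrophages, from 34 to 1269.

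The sequences that bear on the AP-1 genes are shown first. The promoters of Fos, Jun and Batf are the 250 bases before each start, written 5′ to 3′ on the strand of the gene. They are the AP-1 promoters that held TGACGT or TGACNTCA (N is any base), in capitals. Both are partial or variant forms of the cAMP response element. Shorter or other variant forms were not searched, so other members may hold such forms. The element is the kind of site through which signals to CREB and ATF factors are known to reach Fos and Jun.
Fos promoter, chr12:86814590-86814839, mm9, plus strand: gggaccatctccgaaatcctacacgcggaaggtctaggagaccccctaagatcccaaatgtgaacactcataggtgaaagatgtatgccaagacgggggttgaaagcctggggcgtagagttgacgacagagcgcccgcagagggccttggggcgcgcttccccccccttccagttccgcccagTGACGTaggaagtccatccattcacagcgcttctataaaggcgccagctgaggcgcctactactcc
Jun promoter, chr4:94718914-94719163, mm9, minus strand: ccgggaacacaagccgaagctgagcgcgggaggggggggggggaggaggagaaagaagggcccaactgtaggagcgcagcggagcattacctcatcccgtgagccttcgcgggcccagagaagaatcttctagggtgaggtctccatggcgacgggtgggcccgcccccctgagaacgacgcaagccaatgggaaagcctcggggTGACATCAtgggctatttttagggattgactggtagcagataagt
Batf promoter, chr12:87027369-87027618, mm9, plus strand: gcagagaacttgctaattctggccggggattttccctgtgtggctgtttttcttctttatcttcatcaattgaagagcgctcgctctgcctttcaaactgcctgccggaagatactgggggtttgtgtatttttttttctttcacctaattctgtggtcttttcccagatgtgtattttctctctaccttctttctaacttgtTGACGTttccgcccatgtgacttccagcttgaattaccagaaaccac
The capitals are TGACGT in Fos, from 66 to 61 bases before the start, TGACATCA in Jun, from 45 to 38 bases before the start, and TGACGT in Batf, from 47 to 42 bases before the start. Searching both strands, TGACGT was in 7.22% of 22337 protein-coding promoters of the same length and TGACNTCA, of which TGACATCA is a form, in 7.09%. These letters were chosen after the full element had given no match. The full cAMP response element TGACGTCA, which holds both of them, was in 1.91% of all promoters and in none of the 10. The AP-1 site (TGACTCA or TGAGTCA) was in 3.81% of all promoters and the CArG box, the site of serum response factor, in 1.32%, and neither was in any of the 10. TTGCNNAA, a C/EBP-type motif, was in the Fosl1 and Jund promoters against 9.06% of all promoters, and GAGGAAG, a PU.1-type motif, was in the Batf3 promoter against 10.5%. Absence here says only that these letters are not in these windows. Jund has another annotated start downstream of the one used, and the bases before that start were not searched.

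The sequences from beyond the start windows are the 300 bases with most H3K27Ac tags at 48 hpi in windows whose H3K27Ac differed strongly between 0 and 48 hpi. Distances are to the middle of the 3000 bp window and not to the piece. The Fosl2 window adjoins the start window. All pieces are written on the plus strand of mm9, with TTGCNNAA or the AP-1 site in capitals. They come from the window with the largest gain of all (Fosl2), from windows that gained beside Fos and Jun, and from the window with the largest loss (Fosb). Gain and loss were measured over 3000 bp and not in these pieces, and the Fosb piece held 5 tags at 48 hpi.
Fosl2, 3 kb downstream of the start in an intron, chr5:32440613-32440912: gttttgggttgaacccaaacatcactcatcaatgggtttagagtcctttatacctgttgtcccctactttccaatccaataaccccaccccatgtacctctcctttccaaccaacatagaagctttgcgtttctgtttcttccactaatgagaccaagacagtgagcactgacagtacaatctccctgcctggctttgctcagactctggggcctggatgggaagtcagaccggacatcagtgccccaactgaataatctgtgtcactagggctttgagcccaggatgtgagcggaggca
Fos, 18 kb downstream, between protein-coding genes, chr12:86831501-86831800: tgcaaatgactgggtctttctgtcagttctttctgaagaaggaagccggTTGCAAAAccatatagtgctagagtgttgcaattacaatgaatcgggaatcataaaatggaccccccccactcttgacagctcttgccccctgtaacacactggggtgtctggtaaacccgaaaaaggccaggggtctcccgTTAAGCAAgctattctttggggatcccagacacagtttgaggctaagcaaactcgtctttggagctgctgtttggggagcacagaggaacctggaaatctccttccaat
Jun, 42 kb upstream, between protein-coding genes, chr4:94761049-94761348: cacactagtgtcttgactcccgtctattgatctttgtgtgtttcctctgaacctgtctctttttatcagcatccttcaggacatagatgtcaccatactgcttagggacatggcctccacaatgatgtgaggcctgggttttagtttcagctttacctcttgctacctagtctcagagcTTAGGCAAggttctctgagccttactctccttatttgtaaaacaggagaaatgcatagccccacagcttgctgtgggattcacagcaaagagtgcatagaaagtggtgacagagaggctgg
Fosb, 21 kb upstream, between protein-coding genes, chr7:19917514-19917813: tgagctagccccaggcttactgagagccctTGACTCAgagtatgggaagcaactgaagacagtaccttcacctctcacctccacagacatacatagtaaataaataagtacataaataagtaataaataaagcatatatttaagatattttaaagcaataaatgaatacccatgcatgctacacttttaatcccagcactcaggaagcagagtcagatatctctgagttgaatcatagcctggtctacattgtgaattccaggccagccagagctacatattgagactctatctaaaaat
The Fos, Jun and Fosb pieces are shown because each held a motif. The Fos piece held 2 forms of TTGCNNAA (TTGCAAAA and TTAAGCAA) and the Jun piece held 1 (TTAGGCAA). Over all pieces taken here, 3 of 14 from windows called higher and 0 of 8 from windows called lower held one. The background was 9.82% of 136881 pieces from flank windows of all starts enriched for H3K27Ac at 48 hpi. The pieces taken here were chosen by gain or loss instead, and some of their windows were not enriched at 48 hpi. These shares are therefore not from like windows. The Fosb piece, from a window that lost H3K27Ac, held TGACTCA, which with its complement was in 6.45% of those background pieces and in 1 of the 22 taken here. The Fosl2 piece held none of the motifs searched, and the motifs do not overlap each other in these pieces.

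At 0 hpi, 8 of the 10 starts were enriched for H3K27Ac, compared with 46.2% of all protein-coding starts. Junb (959 tags) and Jun (787) were above 99.0% and 97.7% of starts, and their counting intervals did not overlap. Atf3 (508) and Jund (488) followed with overlapping intervals, then Fos (219), Fosl2 (205), Fosb (174) and Batf (163), each overlapping its neighbour in this order. The place of Jund holds for the start used, since the window of its other annotated start held 901 tags. Batf3 (22) and Fosl1 (18) were near the genome mean of 18.3 tags and were not enriched. Fosl1 (80 tags), Batf3 (59) and Fos (40) were the starts enriched for H3K27Me3, as were 16.04% of all starts, and Jun, Junb and Jund held 3 to 5 tags. H3K4Me1 at 0 hpi ranged from 18 tags at Jun to 147 at Jund, where the window of the other annotated start held 94.

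**Figure D1:**
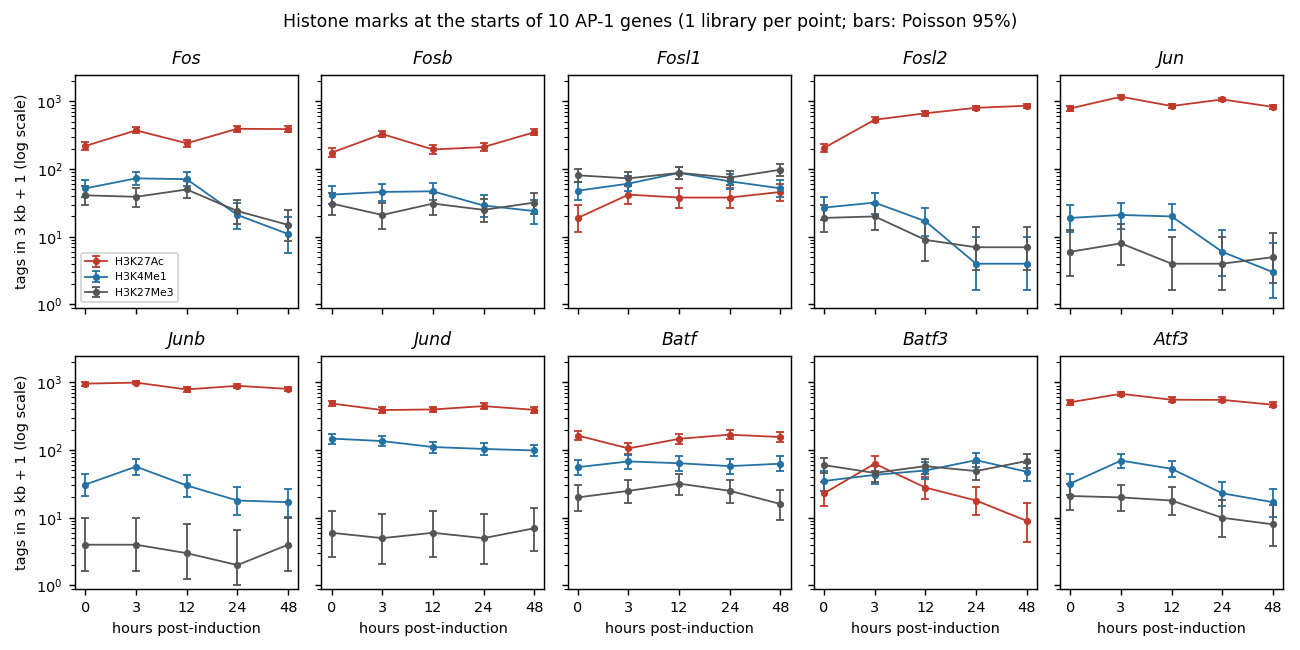
Tags in 3 kb plus 1 at each AP-1 start (vertical axis, log scale) against hours post-induction for H3K27Ac (red), H3K4Me1 (blue) and H3K27Me3 (grey). Points are single libraries and bars are exact Poisson 95% intervals. H3K27Ac at Fosl2 is above its 0 hpi level of 205 tags at every later time, with 863 at 48 hpi, and Batf3 peaks at 3 hpi with 62.

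Fos proteins do not pair with themselves and need a Jun partner to bind DNA. At all 4 genes of the Fos family, and also at Jun, H3K27Ac tags were more numerous at every later time than at 0 hpi. Some of these differences were within counting error: Fos at 12 hpi (log2 0.13, -0.14 to 0.40) and Fosb at 12 hpi (0.16, -0.15 to 0.46) and 24 hpi (0.28, -0.02 to 0.58). The same held for Jun at 12 hpi (0.12, -0.02 to 0.26) and 48 hpi (0.08, -0.07 to 0.22). Fosl2, which encodes Fra-2, had 205, 536, 667, 805 and 863 H3K27Ac tags at 0, 3, 12, 24 and 48 hpi. It was higher at all later times than at 0 hpi, and its intervals at 0 and 3 hpi lay apart. The last step, from 24 to 48 hpi, was within counting error (log2 0.10, -0.04 to 0.24), and with background bins the change was 2.72 at 24 hpi and 2.14 at 48 hpi. The change was 2.61-fold at 3 hpi (log2 1.38, 1.15 to 1.63) and 4.19-fold at 48 hpi (log2 2.07, 1.85 to 2.30). Fosl1, which encodes Fra-1, had 18, 41, 37, 37 and 45 tags, so that it passed the limit for enrichment from 3 hpi on but stayed the lowest of the family. Its change at 48 hpi was 2.42-fold, with a wide interval (log2 1.28, 0.50 to 2.20).

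Fos, the founding member of the family, had 219, 373, 240, 394 and 389 H3K27Ac tags. It was high at 3, 24 and 48 hpi and near its 0 hpi level at 12 hpi, and at 48 hpi it stood 1.77-fold above 0 hpi (log2 0.83, 0.59 to 1.07), short of a call. Fosb had 174, 329, 194, 211 and 350 tags, with the same low value at 12 hpi. At 48 hpi it stood 2.01-fold above 0 hpi (log2 interval 0.74 to 1.28), just inside the 2-fold limit. From 3 to 12 hpi the change was -0.63 at Fos and -0.76 at Fosb, beside a median of -0.18 over 13612 starts.

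The Jun genes, whose proteins pair with each other as well as with Fos proteins, had high H3K27Ac levels at 0 hpi and, in windows of 3000 bp with equal totals, stayed within 1.5-fold of them at every time. Other scalings and windows gave larger changes, such as 1.20 on the log2 scale at Jun at 24 hpi with background bins and -0.71 at Jund at 3 hpi in 1500 bp. Jun had 787, 1174, 855, 1071 and 830 H3K27Ac tags, highest at 3 hpi (1.49-fold, log2 0.58, 0.45 to 0.71) and close to the start value at 48 hpi (log2 0.08, -0.07 to 0.22). Junb had 959, 994, 787, 891 and 802 tags and Jund, the member usually described as constitutive, had 488, 390, 398, 446 and 393. Their log2 changes at 48 hpi were -0.26 and -0.31, near the median of -0.21 over 13319 starts. A second Jund start lies 1219 bp downstream of the one used, and its window had 901, 923, 724, 804 and 680 tags. In windows of 1500 bp the changes at 48 hpi were -0.23 at Jun and 0.089 at Jund.

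Batf and Batf3 encode short leucine zipper proteins that pair with Jun proteins and with IRF factors. Batf had 163, 105, 146, 168 and 155 H3K27Ac tags, lowest at 3 hpi (log2 -0.63, -1.002 to -0.27) and back near its 0 hpi level afterwards (log2 -0.07 at 48 hpi, -0.40 to 0.25). Batf3 had 22, 62, 27, 17 and 8 tags. It was enriched at 3 hpi alone, 2.74-fold over 0 hpi (log2 1.45, 0.77 to 2.27), and at 48 hpi it was lower than at 0 hpi (log2 -1.35, -2.84 to -0.24). In a window of 6000 bp the Batf3 change at 48 hpi was 0.049, so its direction holds for the 3000 bp at the start and not for the wider window. Atf3, a stress-induced member, had 508, 679, 554, 552 and 467 tags, highest at 3 hpi (log2 0.42, 0.25 to 0.59). With background bins its change was 0.069 at 3 hpi and 0.87 at 24 hpi, so the time of its highest level depends on the scaling.

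In counts, 3 members were called higher in H3K27Ac at 3 hpi (Fosl1, Fosl2 and Batf3), where 7.83% of 13405 tested starts were called higher, and 0 were called lower, where 3.86% of starts were. Scaled by background bins, Fosl1 lost its call at 3 hpi (0.80). At 12 hpi 2 members were higher (Fosl1 and Fosl2, background 8.32%) and 0 lower (6.05%), and at 24 hpi the same pair was higher (9.14%) and 0 lower (12.5%). Scaled by background bins, Fosl1 was not called at 12 hpi, and at 24 hpi, where this scaling moved H3K27Ac most, 5 members were higher (Fos 1.60, Fosb 1.03 and Jun 1.20 beside this pair) as were 33.3% of all starts. At 48 hpi 3 were higher (Fosb, Fosl1 and Fosl2, background 10.6%) and 1 lower (Batf3, background 15.8%). In a window of 6000 bp Fosb was not called (0.58), whereas in 1500 bp its change was 1.52. A transient rise, at least 2-fold above both 0 and 48 hpi, was called at 1 member (Batf3, background 4.62%), and a transient fall at 0 (2.43%). The median change of the 10 members was 0.67 at 3 hpi and 0.0023 at 48 hpi, beside 0.15 and -0.21 over all tested starts. With the libraries scaled on constantly enriched bins instead, 0 members were called lower at 48 hpi (8.09% of all starts) and 4 higher (17.7%), and the changes of Junb, Jund, Batf and Atf3 at 48 hpi turned from slightly below to slightly above 0 (0.16, 0.10, 0.34 and 0.30), around the median of 0.21 over all starts under this scaling, whereas those of Fos, Fosb, Fosl1 and Fosl2 were above 1 (1.24, 1.42, 1.69 and 2.49).

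**Figure D2:**
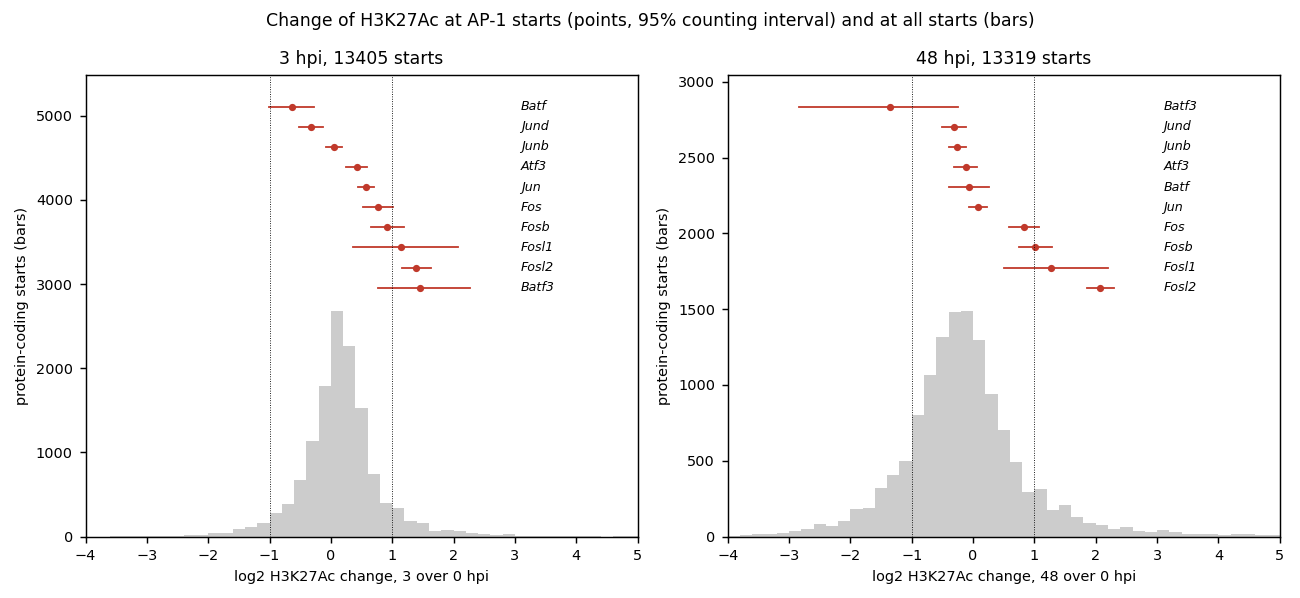
Log2 change of H3K27Ac at 3 hpi (left) and 48 hpi (right) over 0 hpi, with grey bars counting all tested protein-coding starts and red points the 10 AP-1 members with 95% counting intervals. Dotted lines mark 2-fold. Members are ordered by their change, and the 4 genes of the Fos family hold the highest places at 48 hpi, with Fosl2 at 2.07.

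H3K4Me1 at the starts was lower late in the time course at several members. Fosl2 had 26, 31, 16, 3 and 3 tags, Jun 18, 20, 19, 5 and 2, and Fos 51, 72, 70, 20 and 10. In all 3 the levels at 24 and 48 hpi lay under the genome mean of 13.1 tags or, for Fos at 24 hpi, little above it. These were the 3 members called lower at 48 hpi, where 16.4% of 14228 starts were, and 0 members were called higher, where 6.33% were. Fosl2 (26 tags) and Jun (18) were not enriched for H3K4Me1 at 0 hpi either, where the limit was 27 tags. The log2 changes were -2.75 at Fosl2 (-5.48 to -1.41), -2.66 at Jun (-6.32 to -1.11) and -2.24 at Fos (-3.49 to -1.36), with few tags behind the first pair. Scaled by background bins, which raised H3K4Me1 at 48 hpi by 0.76, these were -2.15, -2.12 and -1.54, whereas the change of Jund went from -0.58 to 0.17. In windows of 6000 bp the Fos change was -0.079 and Fosl2, Jun and Junb were called lower. In windows of 1500 bp Fos and Junb were called lower, whereas Fosl2 (-3.32) and Jun (-2.32) were not called. Enriched H3K4Me1 remained at 4 of 10 starts at 48 hpi (Fosl1, Jund, Batf and Batf3), compared with 8 at 0 hpi, beside 40.6% and 44.6% of all starts. With another random thinning 5 starts were called lower, Junb and Atf3 besides these 3. At earlier times a pair of members was called higher, Atf3 at 3 hpi (31 to 69 tags, log2 1.13) and Batf3 at 24 hpi (34 to 70, log2 1.02). These changes lay above those of 97.6% and 94.2% of tested starts, and the share of all starts called was not computed for these times.

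H3K27Me3 could be compared at 7 members, since Jun, Junb and Jund had under 10 tags in both libraries. Fos had 40, 38, 49, 23 and 14 tags and was no longer enriched at 24 and 48 hpi. Fosl2 had 18, 19, 8, 6 and 6 tags and Atf3 20, 19, 17, 9 and 7, so both went from about the genome mean of 18.4 tags to under it. These 3 were called lower at 48 hpi, where 6.11% of 16233 starts were, and 0 were called higher, where 4.68% were. In windows of 1500 bp only Fos was called lower, and in windows of 5000 and 6000 bp only Fosl2. With another random thinning Fosl2 was not called (-0.51), and with tags as deposited Atf3 was not (-0.81). Fosl1 (80, 72, 87, 74 and 97 tags) and Batf3 (59, 45, 57, 48 and 68) were enriched at all 5 times. At Fosl1, H3K27Me3 and H3K27Ac were thus both enriched from 3 hpi on, and whether in the same cells cannot be told from these data.

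The flanking windows held larger changes than the starts, which cannot be read as particular to the AP-1 genes. Over all genes, 31.8% of tested flank windows and 10.6% of tested starts were called higher in H3K27Ac at 48 hpi. For lower calls the shares were 12.2% and 15.8%. Of the 320 windows around the 10 starts, 276 had enough tags to be tested for H3K27Ac, 284 for H3K4Me1 and 272 for H3K27Me3. For H3K27Ac at 48 hpi, 108 were called higher, beside 31.8% of 346489 tested windows around all starts, and 24 were called lower, beside 12.2%. Of the 108, 31 lay at Fosl2, so the pooled count depends strongly on this member. For H3K4Me1, 90 were higher (background 19.3%) and 38 lower (22.0%), which became 138 and 7 with background bins. For H3K27Me3, 7 were higher (3.97%) and 14 lower (6.36%). Enriched H3K27Ac windows went from 88 at 0 hpi to 141 at 48 hpi, or from 27.5% to 44.1%, and over all flanks the share also rose, from 12.5% to 19.2%. Enriched H3K4Me1 windows went from 157 to 200, or from 49.1% to 62.5%, beside 20.4% and 23.6% over all flanks. The windows overlap in part: Batf3 and Atf3 start 84.926 kb apart, so their flanks share 14.074 kb.

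The gains were unevenly spread over the members. Fosl2 had 31 of 32 windows called higher and 0 lower, and 9 of 22342 starts, Fosl2 included, had as many or more, with a median of 3 over all starts. Jun followed with 19 higher and 0 lower, Batf with 13 and 0, Atf3 with 11 and 1, Fos with 10 and 2, Batf3 with 9 and 1, and Fosl1 with 6 and 1, whereas Fosb had 6 of each. Junb (1 higher, 4 lower) and Jund (2 higher, 9 lower) had more losses than gains. Scaled on constantly enriched bins, Junb had 3 higher and 1 lower, Jund 4 and 5, and Fosb 10 and 4. For H3K4Me1, Fosl2 had 23 windows higher and 0 lower, Jun 17 and 0, Atf3 15 and 0, Fosb 1 and 10, and Jund 0 and 13. Scaled by background bins, Fosl2, Jun and Atf3 had 26, 25 and 20 higher and 0 lower, whereas Fosb had 6 higher and 0 lower and Jund 3 and 4. Junb and Fosl1 lie among other genes, with 9 and 8 flank windows that hold another start, whereas Fos, Jun and Batf have none.

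**Figure D3:**
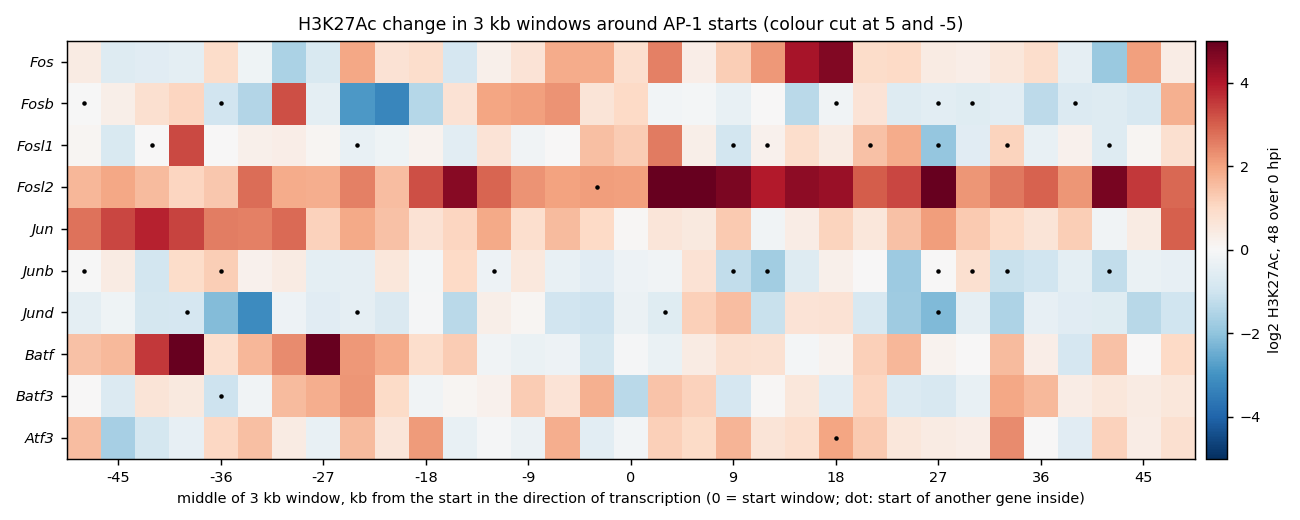
Log2 change of H3K27Ac from 0 to 48 hpi (colour, red higher and blue lower, limited to 5 either way) in 33 windows of 3 kb (horizontal axis, kb from the start in the direction of transcription) for the 10 AP-1 genes (rows). A dot marks a window with the start of another gene. The Fosl2 row is red throughout, with 31 of 32 flank windows called higher, and the Junb and Jund rows are mostly pale or blue.

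Of the 108 gains, meaning the windows called higher, 24 were first called at 3 hpi, of which 18 were also called at both 12 and 24 hpi. A first call came at 12 hpi in 47, while 11 followed at 24 hpi and 26 at 48 hpi. The shares, 22.2%, 43.5%, 10.2% and 24.1%, stand beside 21.1%, 28.0%, 14.3% and 36.7% of gained windows around all starts. At 0 hpi, 35 of the 108 were enriched for H3K4Me1 (32.4%, against 27.4% around all starts), 10 for H3K27Ac (9.26% against 8.57%, a share that the choice of windows by their rise from the same library keeps low) and 53 for H3K27Me3 (49.1% against 19.6%). Of all 320 flank windows, 49.1% were enriched for H3K4Me1 at 0 hpi (20.4% over all flanks) and 39.4% for H3K27Me3 (20.3%). Fosl2 alone held 31 of the gains, so these pooled shares depend on the mix of members. At 48 hpi 84 were enriched for H3K4Me1 (77.8% against 59.7%), 67 for H3K27Ac (62.0% against 54.3%) and 54 for H3K27Me3 (50.0% against 22.4%). Of the gains enriched for H3K27Me3 at 0 hpi, 20 lay at Fosl2, 7 at Fos and 7 at Atf3. That was 20 of 31 gains at Fosl2, where 21 of all 32 windows were enriched, 7 of 10 at Fos (24 of 32) and 7 of 11 at Atf3 (17 of 32). Windows of a member adjoin each other and are not independent. Of the 24 losses, 22 were enriched for H3K4Me1 and 20 for H3K27Ac at 0 hpi, beside 66.4% and 58.9% of lost windows around all starts. At 48 hpi 20 and 16 still were, beside 50.8% and 36.3%. Choosing windows by their fall from the same library keeps the H3K27Ac share at 0 hpi high. Of all 320 flank windows, 27.5% were enriched for H3K27Ac at 0 hpi (12.5% over all flanks). With the like difference in H3K4Me1, these shares cannot be read as particular to the lost windows.

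Fosl2 showed the largest gain. Its flanks together held 278, 500, 1568, 2300 and 3545 H3K27Ac tags at the 5 times, and the number of enriched windows was 1, 3, 9, 15 and 20. The window 3 kb downstream of the start, in an intron of Fosl2 (chr5:32440345-32443344) and next to the start window, had 1, 89, 361, 596 and 717 H3K27Ac tags. It held a single tag before induction, and the log2 change at 48 hpi was 8.49 (7.003 to 14.79). In the same window H3K4Me1 was 17, 112, 105, 45 and 16 tags, highest at 3 and 12 hpi, and H3K27Me3 was 22, 24, 15, 15 and 7. The next window, 6 kb downstream, also in an intron, had 7, 20, 50, 112 and 282 H3K27Ac tags and 16, 15, 77, 180 and 142 H3K4Me1 tags, and was enriched for both from 12 hpi.

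Beyond the gene, the window 27 kb downstream of the Fosl2 start (chr5:32464345-32467344) had 4, 49, 172, 201 and 321 H3K27Ac tags (log2 6.01, 4.96 to 8.21) and 18, 77, 179, 182 and 175 H3K4Me1 tags. Both marks were higher from 3 hpi on. H3K27Me3 there was 59, 66, 87, 60 and 32 tags, and its change at 48 hpi was not called. Upstream, the window at 15 kb, not picked by the rule for named windows, had 10, 6, 79, 184 and 259 H3K27Ac tags, with no gain at 3 hpi. The other start inside the flanks is that of Gm10463, 3 kb upstream, where H3K27Ac was 94, 157, 321, 394 and 399 tags.

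**Figure D4:**
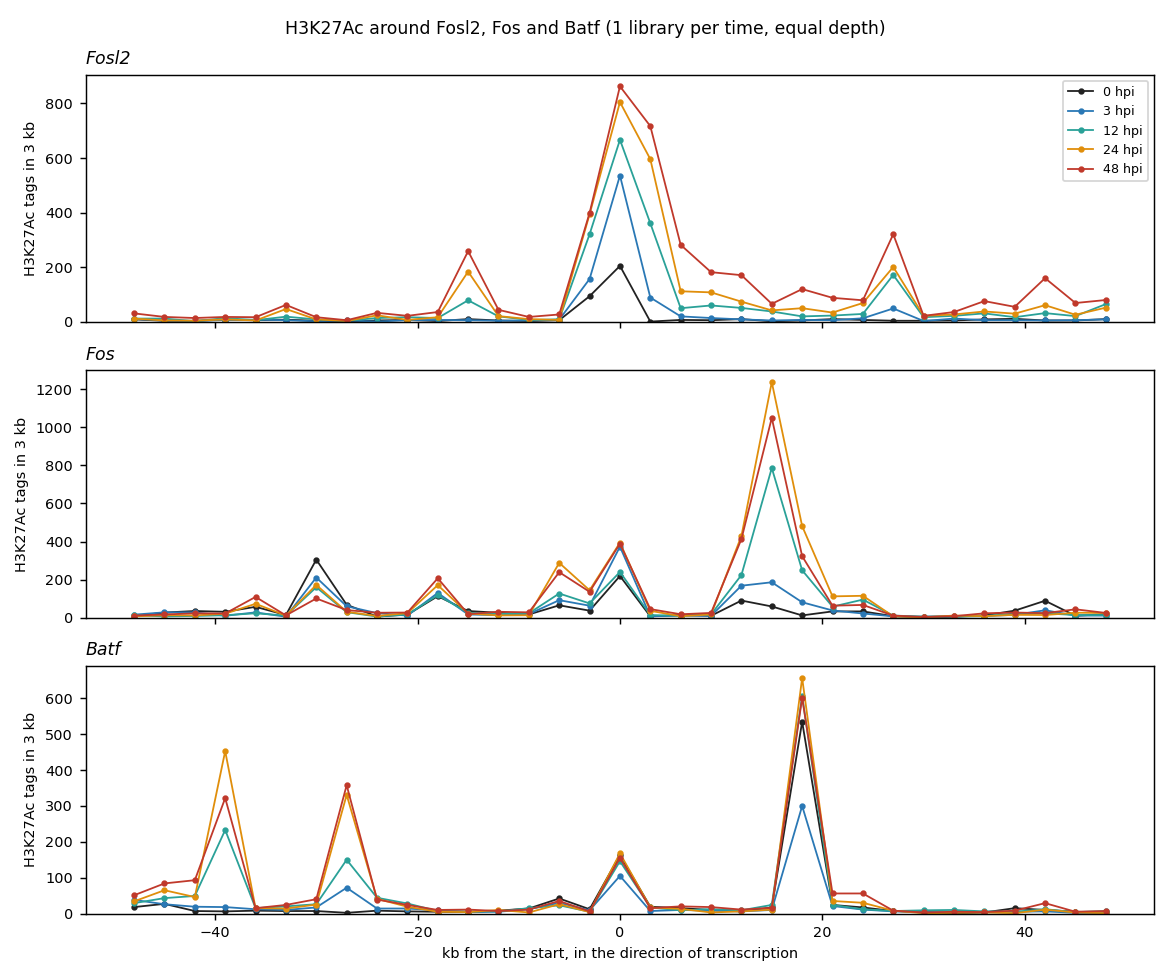
H3K27Ac tags per 3 kb window (vertical axis, from 0) against the distance from the start in kb for Fosl2 (top), Fos (middle) and Batf (bottom) at the 5 times. Lines join single libraries thinned to the same number of distinct tags. At Fosl2 the peak widens into the gene (717 tags at 3 kb at 48 hpi), at Fos a distal peak at 15 kb reaches 1237 tags at 24 hpi, and at Batf a pair of upstream peaks appears.

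At Fos, the highest H3K27Ac levels from 12 hpi on lay outside the start window. The window 18 kb downstream (chr12:86831340-86834339) was the largest gain by ratio, with 12, 81, 249, 481 and 323 H3K27Ac tags (log2 4.64, 3.93 to 5.72) and 71, 116, 206, 186 and 179 H3K4Me1 tags. H3K27Me3 there was 40, 30, 26, 18 and 15 tags. Its neighbour 15 kb downstream, named after its values were seen and within a region the study displayed as an enhancer of Fos, had 59, 186, 786, 1237 and 1049 H3K27Ac tags. At 24 hpi it held 1237 tags where the Fos start held 394. H3K4Me1 in it was 83, 171, 318, 268 and 236 tags, and H3K27Me3 was 32, 34, 29, 9 and 6. This 3000 bp window was enriched for both H3K27Ac and H3K4Me1 at 0 hpi already. The study names Fos among genes with de novo enhancers, which it describes as lacking active marks in pre-B cells. It classed C/EBPα binding sites by the marks at them, and later by the promoter state of the nearest gene. Its regions and limits are not those used here, and whether this window holds the site it classed was not determined. The levels here therefore give no check of that class.

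Batf had distal gains, while its start held 163, 105, 146, 168 and 155 H3K27Ac tags. The window 27 kb upstream (chr12:86999119-87002118) had 2, 72, 150, 331 and 358 H3K27Ac tags (log2 6.90, 5.62 to 10.54) and 20, 61, 221, 177 and 155 H3K4Me1 tags. The window 39 kb upstream (chr12:86987119-86990118) had 6, 18, 233, 453 and 322 H3K27Ac tags (log2 5.53, 4.61 to 7.20) and 35, 31, 252, 233 and 217 H3K4Me1 tags. Both lie between Jdp2 and Batf. An intronic window 18 kb downstream of the Batf start, not picked by the rule for named windows, was enriched at all times. It had 535, 300, 607, 657 and 602 tags, and like the start it was lowest at 3 hpi.

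At Jun, H3K27Ac at the start was near its 0 hpi level at 48 hpi and H3K4Me1 there was lower (18 to 2 tags), while distant upstream windows were higher in both marks. The window 42 kb upstream (chr4:94759413-94762412) had 15, 14, 52, 229 and 229 H3K27Ac tags (log2 3.85, 3.18 to 4.79) and 22, 20, 67, 172 and 187 H3K4Me1 tags. Neither mark was higher at 3 hpi, the time at which H3K27Ac at the Jun start was highest with equal totals. With background bins the Jun start was highest at 24 hpi instead (log2 1.20, against 0.23 at 3 hpi). H3K27Me3 there was 23 tags at both 0 and 48 hpi.

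**Figure D5:**
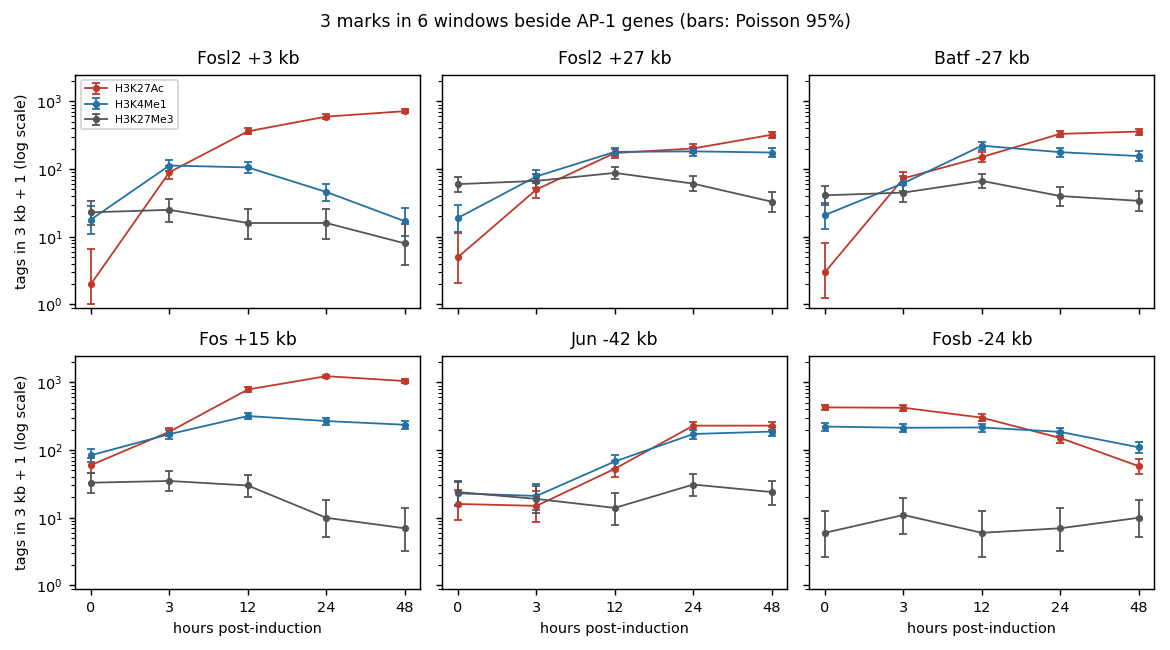
Tags in 3 kb plus 1 (vertical axis, log scale) for H3K27Ac (red), H3K4Me1 (blue) and H3K27Me3 (grey) against hours post-induction in 6 windows named by member and distance from its start. Points are single libraries with exact Poisson 95% intervals. At Fosl2, 3 kb downstream, H3K27Ac ends at 717 tags and H3K4Me1 at 16, and 24 kb upstream of Fosb H3K27Ac ends at 57.

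The largest losses lay beside Fosb and Jund. The window 21 kb upstream of Fosb (chr7:19914894-19917893) had 191, 112, 100, 25 and 19 H3K27Ac tags (log2 -3.26, -4.09 to -2.65), and the window 24 kb upstream had 427, 422, 301, 150 and 57 (log2 -2.88, -3.33 to -2.50). H3K4Me1 was 153 tags at 0 hpi and 119 at 48 hpi in the first, and 222 and 109 in the second. Both lie between the starts of Fosb and Ercc1, a DNA repair gene, so which gene they belong to cannot be told from these data. In contrast, the window 30 kb upstream of Fosb was called higher, with 3, 25, 57, 44 and 36 H3K27Ac tags. The window 33 kb upstream of Jund (chr8:73187138-73190137) had 196, 61, 76, 58 and 21 H3K27Ac tags (log2 -3.16, -3.95 to -2.57) and 92, 66, 48, 33 and 11 H3K4Me1 tags.

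The remaining members held gains and losses of their own. At Batf3 the largest gain was 24 kb upstream, in an intron of Nsl1, with 47, 66, 259, 505 and 218 H3K27Ac tags, and at Atf3 33 kb downstream, with 6, 19, 33, 32 and 35. At Fosl1 it was 39 kb upstream, in an intron of 4930481A15Rik, with 7, 8, 7, 32 and 78 tags (log2 3.30, 2.37 to 4.84). At Junb the largest loss was 12 kb downstream, at the start of Rnaseh2a, with 258, 173, 151, 142 and 77 tags.

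The other genes of the pathway were read at their starts with the same rule. Of 14 genes for partner leucine zipper proteins, 1 was higher and 2 lower at 48 hpi, close to the shares over all starts (10.6% and 15.8%). Nfil3, a repressor of this class, had 62, 476 and 523 H3K27Ac tags at 0, 3 and 48 hpi, whereas Jdp2, which pairs with Jun proteins and lies between Fos and Batf, went from 970 to 410 and Creb1 from 999 to 436. Of 24 upstream kinases and factors, 0 were higher and 3 lower (Mapk10, Elk3 and Mef2c), and of 14 immediate early and feedback genes, 0 were higher and 2 lower (Dusp2 and Dusp5, phosphatases that act on MAP kinases), which is no more than the same shares. The median changes of these 3 lists were -0.34, -0.021 and -0.55. At 3 hpi the immediate early list had 1 gene higher (Nr4a1, 114 to 283 tags) and 0 lower, beside 7.83% and 3.86% of all starts. Of 14 genes known as AP-1 targets, 10 were higher at 48 hpi and 1 lower, with a median change of 2.53 beside -0.21 over all starts. The 10 were Ccl2, Il6, Il1b, Itgax, Mmp9, Mmp13, Plaur, Ptgs2, Spp1 and Timp1. Il6, a cytokine, went from 15 to 746 tags and Mmp13, a collagenase, from 48 to 282, whereas Ccnd1, which encodes cyclin D1, went from 661 to 140. Several of these targets are also macrophage genes, Il1b was an example of the study, and the list is no independent evidence on AP-1.

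Over all 15 libraries, the starts most like each member in log2(tags + 1), at more than 50 kb from it, were found by their root mean square distance, as a description. For Fos it was Egr2, an immediate early gene, at a distance of 0.45, for Fosl2 Rap2a (0.48), for Jun Brd2 (0.35) followed by Trib1 (0.40), for Junb Gsk3b (0.36), and for Batf Pycard (0.25). The distance over the 10 nearest starts ran from 0.23 (Jund and Txn2) to 0.48.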

How the data were processed

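The authors aligned Illumina reads without mismatches to build mm9 with Eland or Bowtie and removed identical and non-unique tags. The tool used for each library and versions are not given in the sources used here. Each deposited file lists aligned tags of 36 bp by position, without strand, so counts were made here. Identical tags had been treated differently between files, and 1 tag per position was kept in all. Deposited libraries held 11.0 to 31.6 M tags.

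Starts were those of protein-coding genes in GENCODE vM1 (NCBIM37, which is mm9), using the start shared by most transcripts. Each tag was placed at its middle, libraries were thinned to the smallest of their mark, and tags in windows of 3000 bp were counted with Python 3.11.15, numpy 2.4.6, pandas 2.3.3 and scipy 1.17.1. With 1 library per group, no test was possible, and calls follow a 2-fold rule. Members, gene lists and call rules were chosen with earlier results of these data known. All 10 members are named. For each member the called windows with the largest gain and loss were taken, with the 5 largest gains and 3 largest losses in full. A few further windows beside Fosl2, Fos and Batf were named outside this rule. Binding, nucleosome and expression data were not analysed here.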

Additional observations from a re-analysis of the deposited data

How the results depend on the processing

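The calls and log2 changes at the starts, the calls in flank windows and the counts of enriched flank windows came to 84 results. Of 16 alternatives, those that apply to each, from 1 to 13, were run and gave 728 values. The transient calls, the timing of gains, the pathway lists and the nearest starts were not recomputed. Of the 728 values, 628 moved by less than their counting interval (or, for counts, by less than 1.5 times), 99 moved by more, and 1 called value changed sign and lost its call, the H3K27Ac change of the Batf3 start at 48 hpi (0.0489 in a 6000 bp window). A further 33 values took the other sign at members that had not been called. One alternative, the most 5′ start, was the start already used at every member, so it could move no value. A count also passed as unmoved when other members made it up. For H3K4Me1 lower at 48 hpi, Fos, Fosl2 and Jun were called, but Fos and Junb in 1500 bp. No paired analysis was possible because a group was a single library. Background bins moved the log2 scale of H3K27Ac at 24 hpi by 0.75 and of H3K4Me1 at 48 hpi by 0.76, and bins enriched at all times moved H3K27Ac at 48 hpi by 0.42. The cause of these shifts was not tested.

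For the settings in this paragraph, shares over all starts were computed only for H3K27Ac and H3K4Me1 under the other scalings. The other counts have no background beside them and cannot be read as particular to the members. At a limit of 1.5-fold, 5 starts were higher and 1 lower (Batf) in H3K27Ac at 3 hpi, and 6 were lower in H3K4Me1 at 48 hpi. The flank windows at this limit came to 55 lower in H3K27Ac, 79 lower in H3K4Me1, and 32 higher and 34 lower in H3K27Me3. With 3 hpi as the reference, chosen after seeing the data, 0 starts were higher in H3K27Ac at 48 hpi and 5 lower in H3K4Me1. Starts higher in H3K27Ac at 12 hpi numbered 1 (Fosl2) with background scaling, with another thinning and at 1500 bp. At 24 hpi they numbered 5 with background scaling, and 1 (Fosl2) with tags as deposited and with all tags scaled by total. Starts lower in H3K27Ac at 48 hpi numbered 0 with enriched-bin scaling and 0 in a 6000 bp window. Starts lower in H3K4Me1 numbered 5 with tags as deposited and 5 with another thinning, and 1 was higher (Batf3) with background scaling, as were 18.9% of all starts. Starts lower in H3K27Me3 numbered 1 at 1500 bp (Fos), 1 at 6000 bp and 1 at 5000 bp (Fosl2 in both). Flank windows lower in H3K27Ac numbered 14 with enriched-bin scaling, 12 without windows near other starts and 38 at 24 hpi, an end point chosen after seeing the data. With background scaling, 138 flank windows were higher and 7 lower in H3K4Me1, and 9 were lower in H3K27Me3. Without windows near other starts, 21 were lower in H3K4Me1. Flank windows in H3K27Me3 numbered 2 higher with all tags and 7 lower with at least 20 tags. Where both libraries held under 10 tags, as for H3K27Me3 at the Jun genes, no change could be called.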
